A study of Homo sapiens with 4 samples.

Results

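UM-UC-3 is a human bladder cancer cell line, and its RNA was compared after 48 h in 140 µM OICR-9429 and after 48 h in the solvent DMSO, which the labels call the negative control. The comparison uses every gene of the 2 UM-UC-3 libraries out of 4 libraries in the series, and the other 2 come from T24, a further human bladder cancer line given the same treatments. OICR-9429 occupies the pocket of WDR5 through which WDR5 contacts the methyltransferase MLL1. It was given from a stock in DMSO, and the study set the dose at a multiple of the concentration that reduced viability. The labels give 140 µM, while the heading of the treated values holds the number 125, whose meaning is not given. Each condition is 1 library, so no difference here has a replicate check and no test of the conditions was made. The methods state n = 4 without saying whether that counts libraries in all or cultures per condition.

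WDR5 is a scaffold subunit of the MLL complexes, which methylate lysine 4 of histone H3 at the start sites of active genes. Loss of that mark lowers the output of genes that depend on it, many of them genes of growth and division in cancer cells. In the integrated stress response, a separate program, kinases that sense protein misfolding, amino acid shortage or heme shortage phosphorylate eIF2 alpha, general translation slows, and the transcription factor ATF4 is made and switches on genes for amino acid supply, protein folding and growth arrest.

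Values are FPKM, reads scaled to the length of the gene and to the library total, so they are shares of a library. Fewer transcripts of a gene per cell and more RNA from other genes cannot be told apart, and the RNA content per cell was not analysed here. The library totals were 29184912 reads with OICR-9429 and 28209432 reads with DMSO, and 12115 and 11867 genes reached 1 FPKM. The share of reads from the mitochondrial genome was 3.68% with OICR-9429 and 3.94% with DMSO. Of 15 bladder epithelial markers in the table, 3 reached 1 FPKM in either library: KRT8, KRT18 and the nuclear receptor PPARG, with log2 fold changes of -1.74, -1.85 and 1.63, OICR-9429 over DMSO in FPKM + 0.5. The bladder epithelial markers summed to 37.0 FPKM with OICR-9429 and 109 FPKM with DMSO. The luminal factor GATA3 and the adhesion gene CDH1 stayed below 1 FPKM, KRT20 was at 0 in both libraries, and the mesenchymal markers VIM, ZEB1, ZEB2 and CDH2 all reached 1 FPKM and summed to 107 FPKM with OICR-9429 and 220.4 FPKM with DMSO. Of 7 markers of blood, vessel, liver and nerve cells, only SYP did, the leukocyte marker PTPRC was at 0 in both libraries, and the 7 summed to 2.03 FPKM with OICR-9429 and 1.42 FPKM with DMSO.

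Of 13086 genes with at least 1 FPKM in either library, 1828 were higher with OICR-9429 (14.0%) and 1580 were lower (12.1%) by at least 2-fold in FPKM + 0.5. This rule of size is what "rose", "fell", "higher" and "lower" stand for below, and log2 fold changes are OICR-9429 over DMSO on the log2(FPKM + 0.5) scale, which understates the change of low genes. The median of all these genes was 0.09, with quartiles at -0.51 and 0.65. At 4-fold or more the balance turned, with 316 genes higher and 421 lower. Ratios are of the FPKM values without the added 0.5, and their exact 95% intervals, given where the FPKM could be worked back to whole reads, cover counting error only.

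**Figure D1:**
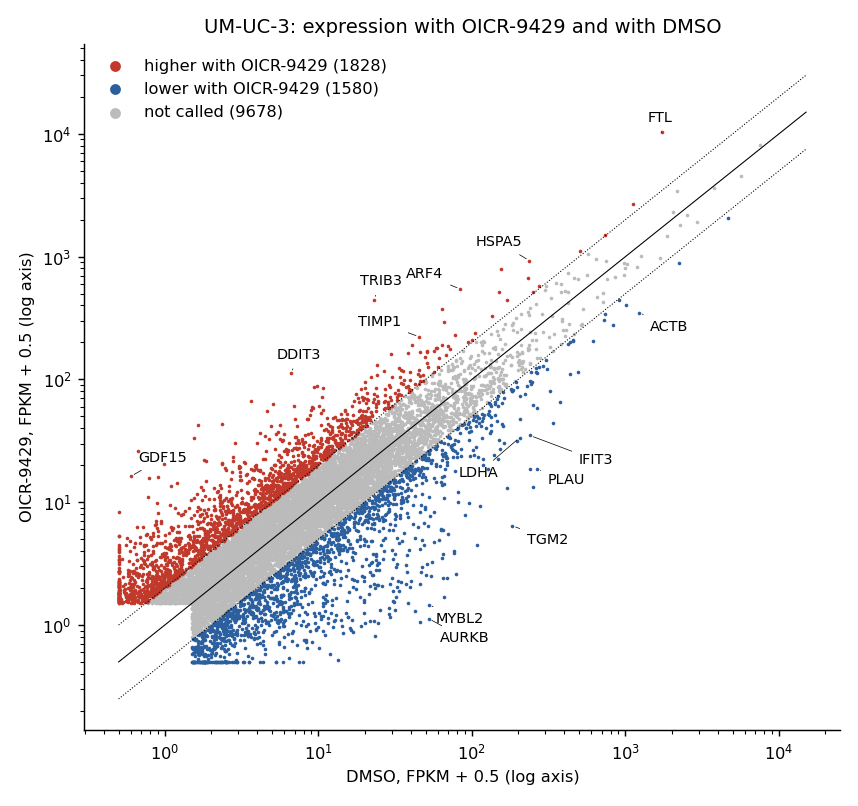
FPKM + 0.5 of 13086 genes in UM-UC-3 cells with OICR-9429 (vertical log axis) and with DMSO (horizontal log axis), 1 library each; red points are the 1828 genes higher and blue points the 1580 genes lower by at least 2-fold, and the dotted lines mark 2-fold. Stress genes such as TRIB3 and DDIT3 lie far above the line, and AURKB, MYBL2 and TGM2 lie far below it.

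The largest rises were led by stress genes and the largest falls by genes of cell division. Among protein-coding genes of at least 5 FPKM, GDF15, a secreted stress cytokine, had the largest rise, with 15.7 FPKM in OICR-9429 and 0.102 FPKM in DMSO (log2 fold change 4.75). Next came RAB39B, a Rab GTPase (log2 fold change 4.71), the netrin receptor UNC5B (4.43), the stress-induced chromatin protein NUPR1 (4.39), the pseudokinase TRIB3 (4.27), the glutathione-degrading enzyme CHAC1 (4.22) and the C/EBP-family factor DDIT3 (4.08). At the other end, the mitotic kinase AURKB had 0.627 FPKM with OICR-9429 and 51.8 FPKM with DMSO (log2 fold change -5.54), followed by the cytidine deaminase APOBEC3B (-5.44), the ribonucleotide reductase subunit RRM2 (-5.28) and the transcription factor MYBL2 (-5.16). Of the 15 largest falls, TGM2, a transglutaminase that crosslinks matrix proteins, was the one with the smallest fall in T24, at -0.60 there. The most abundant gene of the treated library was FTL, the ferritin light chain, with 10265 FPKM in OICR-9429 and 1718 FPKM in DMSO, or 0.881% of all reads with OICR-9429 and 0.147% with DMSO. FTL reads can be shared with its pseudogenes, so this value is uncertain. The RNA of WDR5 had 29.8 FPKM in OICR-9429 and 44.4 FPKM in DMSO, short of 2-fold.

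Most genes of the integrated stress response rose. Of 30 measured members 22 were higher and 0 lower, with a median log2 fold change of 2.11 against 0.09 over all genes. ATF4, the central transcription factor, had 445 FPKM in OICR-9429 and 169 FPKM in DMSO (2.63-fold, 2.57 to 2.68). TRIB3, a pseudokinase that ATF4 controls, also had 445 FPKM in OICR-9429, against 22.5 FPKM in DMSO (19.7-fold, 18.9 to 20.6). DDIT3, known as CHOP, had 112 FPKM in OICR-9429 and 6.13 FPKM in DMSO. The rise thus covered the factor and genes it is known to control. Other regulators moved in the same direction: EIF2AK3, the kinase PERK of the endoplasmic reticulum, rose 10.8-fold (9.55 to 12.2). Its opposing phosphatase subunit PPP1R15A, known as GADD34, rose 4.75-fold (4.58 to 4.92). CEBPB and CEBPG, partners of ATF4 on DNA, had log2 fold changes of 2.13 and 2.09. The other kinases of eIF2 alpha did not reach 2-fold: EIF2AK1, EIF2AK4 and EIF2AK2 had log2 fold changes of 0.66, 0.27 and -0.17. DDIT4 and SESN2, both inhibitors of mTORC1 signalling, rose 13.7-fold (12.1 to 15.5) and 9.48-fold (8.86 to 10.2). VEGFA, the vascular growth factor, had 34.3 FPKM in OICR-9429 and 3.98 FPKM in DMSO.

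The enzymes that make amino acids split. Of 25 measured genes of amino acid and one-carbon synthesis, 12 were higher and 6 lower (median 0.95), against 14.0% and 12.1% of all genes. The higher genes included GPT2 and GOT1, transaminases of alanine and aspartate, with log2 fold changes of 2.13 and 1.78. ASNS, asparagine synthetase, had 123 FPKM in OICR-9429 and 32.8 FPKM in DMSO (3.76-fold, 3.63 to 3.89). PHGDH and PSAT1, the first steps of serine synthesis, had log2 fold changes of 1.21 and 1.08, and MTHFD2, the mitochondrial folate enzyme, 1.05. The lower genes were mostly the cytosolic folate and nucleotide arm. TYMS, thymidylate synthase, was 10.3-fold lower (8.13 to 13.3), and SHMT1 and MTHFD1 had log2 fold changes of -1.89 and -1.44. MAT2A, which makes the methyl donor S-adenosylmethionine, had 85.7 FPKM in OICR-9429 and 196 FPKM in DMSO.

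Part of the genes for charging and import of amino acids rose, where 14.0% of all genes were higher and 12.1% lower. Of 20 cytosolic aminoacyl-tRNA synthetases in the table, 5 were higher and 0 lower (median 0.49). They were WARS (log2 fold change 1.62), GARS (1.39), CARS (1.18), SARS (1.17) and AARS (1.07), which load tryptophan, glycine, cysteine, serine and alanine. HARS, DARS and FARSB, for histidine, aspartate and phenylalanine, had values of -0.53, -0.51 and -0.51. Of 19 measured amino acid transporters, 7 were higher and 0 lower (median 0.55), and 4 were higher when the libraries were scaled by trimmed means of M-values. SLC1A4, a neutral amino acid carrier, had 6.50 FPKM in OICR-9429 and 0.378 FPKM in DMSO (17.2-fold, 13.6 to 22.0). SLC7A11, which imports cystine, had 19.5 FPKM in OICR-9429 and 3.44 FPKM in DMSO. SLC38A1, a glutamine carrier, rose 3.03-fold (2.98 to 3.09).

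The promoters of some of these genes hold the element that ATF4 binds with C/EBP partners, here searched as TGATGNAA on both strands. In RefSeq promoters of GRCh38.p14, taken from 250 bases before to 50 after 1 start site per gene, these letters were found for 4 of 19 higher stress response genes with a promoter in the table (21.1%), 3 of 9 higher amino acid genes (33.3%) and 2 of 5 higher synthetases (40%). The share was 3.67% of all 27305 promoters and 1.67% of those of the 13086 measured genes that had one. Over all higher genes it was 3.24%, and over all lower genes 2.25%. The lists were chosen with earlier results of these data known, so their shares are descriptions. Sets of 9 and 5 promoters are too few to compare with the shares over all promoters. ASNS stands in both of the first sets. A match is a description of the letters and not of a bound site. The windows shown end before the start site, read 5′ to 3′ on the gene's strand, and have the match in capitals. They were chosen because these genes rose together and share the letters.
ASNS (chr7:97872429-97872516, minus strand): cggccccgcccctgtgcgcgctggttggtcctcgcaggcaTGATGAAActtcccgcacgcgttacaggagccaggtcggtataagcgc
ATF3 (chr1:212565176-212565263, plus strand): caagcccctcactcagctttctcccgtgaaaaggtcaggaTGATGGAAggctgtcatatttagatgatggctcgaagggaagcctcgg
BCAT1 (chr12:24949102-24949189, minus strand): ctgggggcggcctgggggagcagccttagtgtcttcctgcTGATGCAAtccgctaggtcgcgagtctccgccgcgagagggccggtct
GOT1 (chr10:99430775-99430862, minus strand): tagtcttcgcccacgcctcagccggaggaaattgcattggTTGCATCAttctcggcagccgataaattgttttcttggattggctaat
CHAC1 (chr15:40953222-40953309, plus strand): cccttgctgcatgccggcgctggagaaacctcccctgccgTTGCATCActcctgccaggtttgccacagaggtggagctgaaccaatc
AARS (chr16:70289646-70289733, minus strand): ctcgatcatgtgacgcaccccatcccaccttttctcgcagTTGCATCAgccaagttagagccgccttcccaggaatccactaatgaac
Counted from the start site, the match began at base -68 in ASNS and at base -48 in BCAT1, which transaminates branched-chain amino acids. It lay farther out in ATF3, GOT1, CHAC1 and AARS, at bases -191, -198, -209 and -187. The windows of GOT1, CHAC1 and AARS carry the element in the opposite orientation to ASNS, ATF3 and BCAT1. ATF3, itself a factor of the ATF family, had 21.2 FPKM in OICR-9429 and 1.34 FPKM in DMSO.

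**Figure D2:**
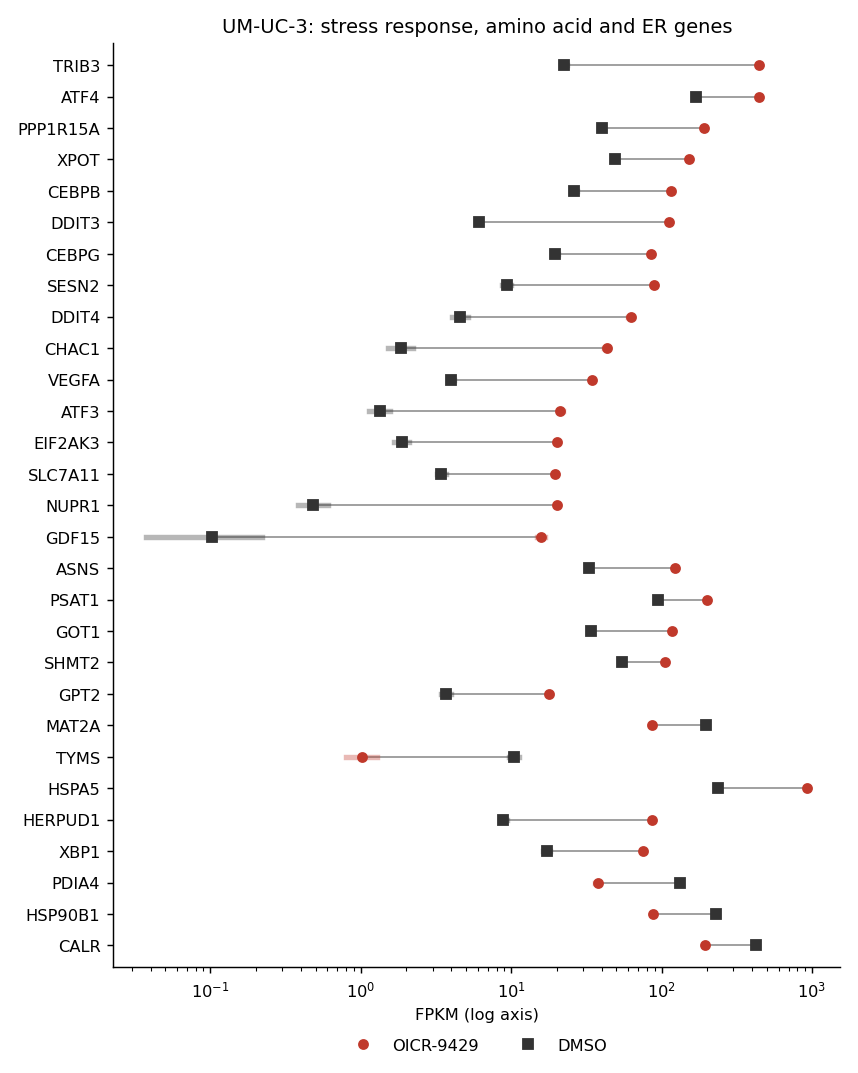
FPKM (log axis) of genes of the integrated stress response, amino acid synthesis and endoplasmic reticulum in UM-UC-3, red circles for OICR-9429 and black squares for DMSO, 1 library each, with exact 95% counting intervals as pale bars where reads were whole. From TRIB3 to SHMT2 and GPT2 the red circles lie to the right, while MAT2A, TYMS, PDIA4, HSP90B1 and CALR lie to the left.

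Part of the genes of protein folding in the endoplasmic reticulum rose, and a few fell. Of 40 measured genes 17 were higher and 6 lower (median 0.61), against 14.0% and 12.1% of all genes. The lower count was near the share of all genes. HSPA5, the chaperone BiP, had 925 FPKM in OICR-9429 and 237 FPKM in DMSO (3.91-fold, 3.86 to 3.97). HERPUD1, a scaffold of degradation at that membrane, had 86.6 FPKM in OICR-9429 and 8.88 FPKM in DMSO (9.75-fold, 9.21 to 10.3). All 3 sensors rose, ERN1 (IRE1) with a log2 fold change of 2.09, ATF6 with 1.64 and EIF2AK3 with 3.12, and so did XBP1, the transcript that IRE1 splices, with 2.11. The ubiquitin ligase SYVN1 and its partner SEL1L, which carry out degradation of misfolded proteins, had values of 1.62 and 1.31. The lower members were abundant lumenal folding proteins. PDIA4, a disulfide isomerase, had 37.5 FPKM in OICR-9429 and 132 FPKM in DMSO (3.52-fold lower, 3.39 to 3.66). CALR, the lectin chaperone calreticulin, had 195 FPKM in OICR-9429 and 424 FPKM in DMSO. HSP90B1, PDIA6, PDIA3 and MANF had log2 fold changes of -1.38, -1.59, -1.54 and -1.14. HSPA5 and HSP90B1 are both known as targets of the unfolded protein response, and here they lay on opposite sides. In the cytosol HSP90AA1 and HSP90AB1, the main HSP90 genes, had log2 fold changes of -1.57 and -1.32. HSPA1B rose, with a log2 fold change of 1.55, although its reads can be shared with HSPA1A. Over the 28 measured heat shock genes 4 were higher and 3 lower (median -0.32), near the shares of all genes (14.0% and 12.1%). Under the trimmed mean scaling 5 were lower.

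Part of the autophagy, lysosome and antioxidant genes rose. Of 42 autophagy genes 12 were higher and 0 lower (median 0.50), and 7 were higher under the trimmed mean scaling. WIPI1, which marks forming autophagosomes, had 14.3 FPKM in OICR-9429 and 1.37 FPKM in DMSO (10.5-fold, 8.74 to 12.6). MAP1LC3B, the LC3 protein of the autophagosome membrane, rose 4.80-fold (4.61 to 4.99), with the reservation that MAP1LC3B2 is a near copy. ULK1 and RB1CC1 of the initiating kinase had log2 fold changes of 1.08 and 1.06, while BECN1, ATG5 and ATG7 had 0.35, 0.27 and -0.78. Of 58 lysosomal and V-ATPase genes 12 were higher and 1 was lower (median 0.28), against 14.0% and 12.1% of all genes and a median of 0.09. The sialidase NEU1 had 32.2 FPKM in OICR-9429 and 5.09 FPKM in DMSO, and PSAP, the precursor of the saposins, had 572 FPKM in OICR-9429 and 271 FPKM in DMSO. The letters TCACGTGA, which TFEB binds in many lysosomal promoters, were in 0 of 9 promoters of the higher lysosomal genes. They were in 1.04% of all promoters and 2.07% of those of measured genes. At such shares 0 of 9 would be usual, so the count says nothing about TFEB. Of 37 genes controlled by NRF2, the regulator of the antioxidant response, 12 were higher and 0 lower (median 0.39). HMOX1, which breaks down heme, had 169 FPKM in OICR-9429 and 50.1 FPKM in DMSO, and FTH1, the ferritin heavy chain, had 792 FPKM in OICR-9429 and 154 FPKM in DMSO. The classical target NQO1 and NFE2L2 itself had log2 fold changes of 0.38 and 0.83. Of 20 measured genes of iron handling, a list that holds the ferritins, 4 were higher and 3 lower (median 0.11), against 14.0% and 12.1% over all genes, and the metalloreductase STEAP1 fell, with 7.78 FPKM in OICR-9429 and 45.2 FPKM in DMSO.

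Part of the sterol pathway rose, by smaller steps. Of 28 measured genes of cholesterol synthesis and uptake 9 were higher and 0 lower (median 0.66). MSMO1 and SQLE, later enzymes of the pathway, rose 2.70-fold (2.59 to 2.82) and 2.52-fold (2.44 to 2.61). SREBF2, the factor that controls these genes, had a log2 fold change of 0.59. Of 22 fatty acid genes 2 were higher and 2 lower, against 14.0% and 12.1% of all genes. The desaturase SCD had 327 FPKM in OICR-9429 and 134 FPKM in DMSO, whereas the elongase ELOVL6 had 5.44 FPKM in OICR-9429 and 17.1 FPKM in DMSO.

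Part of the early response and growth arrest factors rose. Of 29 measured immediate early factors 13 were higher and 0 lower (median 0.78). JUND, an AP-1 subunit linked to slow growth, had 71.9 FPKM in OICR-9429 and 10.1 FPKM in DMSO (7.13-fold, 6.51 to 7.82). KLF4 rose 6.10-fold (5.64 to 6.62) and EGR1 7.16-fold (6.28 to 8.20). The list was not uniform: FOSL1, an AP-1 subunit and its most abundant member, had 225 FPKM in OICR-9429 and 403 FPKM in DMSO, and JUN had a log2 fold change of -0.40. Of 24 forkhead O target and growth arrest genes 12 were higher and 2 lower (median 0.97). BTG1, an antiproliferative cofactor of mRNA decay, rose 5.82-fold (5.46 to 6.21). IRS2, the insulin receptor substrate, had 12.6 FPKM in OICR-9429 and 1.59 FPKM in DMSO. TXNIP, a glucose-responsive gene of the same list, had 0.605 FPKM in OICR-9429 and 2.74 FPKM in DMSO. In the MYC network, MXD1, a repressor that competes with MYC for MAX, had 17.7 FPKM in OICR-9429 and 2.01 FPKM in DMSO (8.80-fold, 7.89 to 9.83), while MYC itself had 158 FPKM in OICR-9429 and 109 FPKM in DMSO. Of 17 clock genes 4 were higher and 0 lower, against 14.0% and 12.1% of all genes. PER1 and NFIL3 were among the higher clock genes, with log2 fold changes of 2.57 and 2.40.

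Part of the p53 targets rose, and a few fell. Of 33 measured genes 10 were higher and 4 lower (median 0.59), against 14.0% and 12.1% of all genes. The lower count was near the share of all genes. The higher ones included GDF15 and SESN2, which belong to the stress response list as well. CDKN1A, the CDK inhibitor p21, had 59.4 FPKM in OICR-9429 and 27.9 FPKM in DMSO (2.13-fold, 2.03 to 2.23). MDM2, a direct p53 target, had 4.49 FPKM in OICR-9429 and 4.50 FPKM in DMSO. FAS and DDB2 fell, with log2 fold changes of -2.19 and -1.42. BBC3, known as PUMA, rose, with 7.17 FPKM in OICR-9429 and 2.40 FPKM in DMSO.

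A large part of the interferon-stimulated genes fell. Of 49 measured members 22 were lower and 0 higher (median -0.94). IFIT3 and IFIT1, which bind foreign RNA, were the most changed of the abundant members. IFIT3 had 34.4 FPKM in OICR-9429 and 238 FPKM in DMSO, 6.92-fold lower (6.64 to 7.21). IFIT1 had 30.8 FPKM in OICR-9429 and 197 FPKM in DMSO, 6.39-fold lower (6.19 to 6.61). IFI6, a mitochondrial and reticulum protein induced by interferon, had 304 FPKM in OICR-9429 and 721 FPKM in DMSO. The sensor DDX58 (RIG-I) and the synthetases OAS1, OAS2 and OAS3 had log2 fold changes of -1.79, -1.78, -2.12 and -2.09. The factors IRF9, STAT2 and IRF7, which drive these genes, had log2 fold changes of -0.11, 0.38 and 0.64. Over all genes 12.1% were lower and 14.0% higher. In antigen presentation by MHC class I, 6 of 21 genes were lower and 0 higher (median -0.63). They were ERAP2, PDIA3, TAP2, the activator NLRC5, CALR and the proteasome subunit PSMB8. B2M, the light chain of class I molecules, had a log2 fold change of -0.39.

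Most of the measured matrix genes fell, and part of the adhesion genes did. Of 27 measured collagens, laminins and other matrix genes 15 were lower and 2 higher (median -1.56). Without the 1 FPKM minimum, which leaves out genes under it in both libraries, its median was -0.17, with 16 lower and 2 higher. TGM2 had 5.94 FPKM in OICR-9429 and 183 FPKM in DMSO, 30.7-fold lower (29.1 to 32.4). SPARC, a collagen-binding protein, had 4.11 FPKM in OICR-9429 and 33.2 FPKM in DMSO, 8.06-fold lower (7.39 to 8.80). The basement membrane collagens COL4A1 and COL4A2 had log2 fold changes of -1.68 and -1.62, and the lysyl oxidase LOXL2 -1.93. In contrast COL5A1 and LAMA5 rose (1.29 and 1.09), and fibronectin, FN1, had -0.79. Of 10 measured integrins 5 were lower and 0 higher (median -1.02, and -0.15 without the minimum), among them ITGA2, ITGA5 and ITGA6 with -1.62, -1.21 and -1.45. ITGB1, the shared beta chain and the most abundant, had 149 FPKM in OICR-9429 and 265 FPKM in DMSO.

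Urokinase and its receptor fell. The protease PLAU had 18.1 FPKM in OICR-9429 and 265 FPKM in DMSO, 14.7-fold lower (13.9 to 15.4). Its receptor PLAUR had 7.73 FPKM in OICR-9429 and 37.3 FPKM in DMSO, 4.83-fold lower (4.51 to 5.17). Of the 24 measured genes of the urokinase, metalloproteinase and inhibitor list, 9 were lower and 2 higher, against 12.1% and 14.0% of all genes. TIMP1, an inhibitor of metalloproteinases, was one of those higher, with 221 FPKM in OICR-9429 and 44.9 FPKM in DMSO (4.92-fold, 4.69 to 5.17). MMP2 and MMP9, the gelatinases, had log2 fold changes of -1.31 and -2.78, and MMP14 had -0.80. The letters that AP-1 binds, TGACTCA searched on both strands, were in 1 of 5 promoters of the lower members. They were in 4.92% of all promoters and 2.97% of those of measured genes, and 5 promoters are too few to compare with these shares.

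Part of the cytoskeleton genes fell as well. Of 44 measured actin and contractile genes 20 were lower and 0 higher (median -0.96). ACTN4, an actin crosslinker, had 41.6 FPKM in OICR-9429 and 158 FPKM in DMSO, 3.79-fold lower (3.70 to 3.89). TAGLN2, an actin-binding protein, was 5.73-fold lower (5.46 to 6.02). All 4 tropomyosin genes on the list, TPM1 to TPM4, had values between -1.01 and -1.25. ANLN, the scaffold of the cytokinetic ring and so also a gene of cell division, had 3.38 FPKM in OICR-9429 and 75.6 FPKM in DMSO. Of 11 tubulins 7 were lower and 1 higher (median -1.51, and -0.53 without the minimum). TUBA1B had 7.31 FPKM in OICR-9429 and 90.1 FPKM in DMSO, and TUBE1, epsilon-tubulin of the centrosome, was the gene higher, with 12.5 FPKM in OICR-9429 and 4.19 FPKM in DMSO. Tubulin and actin genes have near-identical copies, which makes each of those values uncertain. Of 28 measured targets of YAP and TEAD, which respond to cell tension, 10 were lower and 0 higher (median -0.79). CYR61 had 52.0 FPKM in OICR-9429 and 127 FPKM in DMSO, and CTGF had 26.5 FPKM in OICR-9429 and 42.8 FPKM in DMSO, short of 2-fold.

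Part of the glycolysis genes fell. Of 25 measured genes 9 were lower and 1 higher (median -0.68). LDHA, which makes lactate, had 33.1 FPKM in OICR-9429 and 204 FPKM in DMSO, 6.18-fold lower (6.01 to 6.35). ENO1, the main enolase, had 278 FPKM in OICR-9429 and 829 FPKM in DMSO. ENO2, its neuronal form, was the 1 gene higher, with 40.7 FPKM in OICR-9429 and 13.7 FPKM in DMSO. GAPDH, often used as a reference gene, had 444 FPKM in OICR-9429 and 908 FPKM in DMSO, and GAPDH and ENO1 have pseudogenes that can share reads. At the entry to the pathway the hexokinases HK1 and HK2 and the glucose carrier SLC2A1 had log2 fold changes of 0.76, 0.90 and 0.26, while GPI and PFKP, which act next, fell with -1.17 and -1.35.

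**Figure D3:**
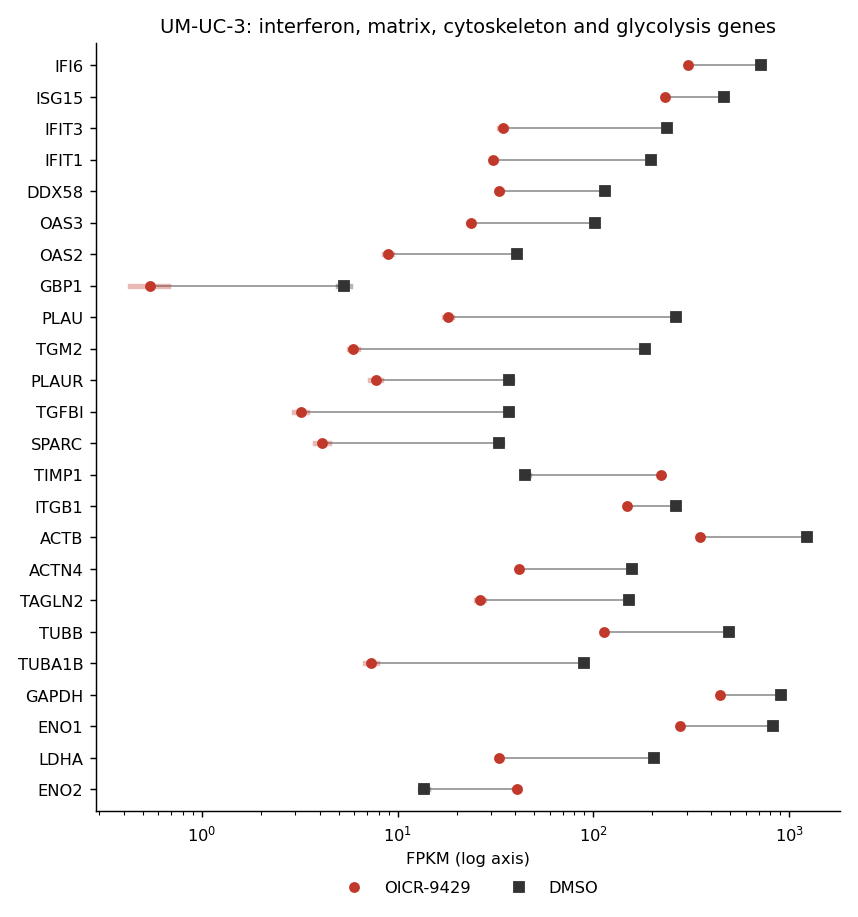
FPKM (log axis) of interferon-stimulated, protease, matrix, cytoskeleton and glycolysis genes in UM-UC-3, red circles for OICR-9429 and black squares for DMSO, 1 library each, with exact 95% counting intervals as pale bars where reads were whole. All red circles lie to the left of their squares except those of TIMP1 and ENO2.

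Genes of cell division had the largest falls. All 58 measured genes of G2 and mitosis were lower (median -3.71), and of 63 DNA replication genes 53 were lower and 0 higher (median -2.32). The G2 and mitosis genes summed to 301 FPKM in OICR-9429 and 3055 FPKM in DMSO. UBE2C, the conjugating enzyme of the anaphase-promoting complex, was the most abundant, with 12.7 FPKM in OICR-9429 and 249.5 FPKM in DMSO, 19.6-fold lower (17.9 to 21.5). MKI67, the proliferation marker, was 35.8-fold lower (33.2 to 38.6).

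Many of those promoters carry the cell cycle homology region, the letters TTTGAA near the start site through which MuvB complexes act. Searched on both strands (TTCAAA on the other), the letters were found for 35 of the 50 genes with a promoter in the table (70%), against 15.4% of all promoters and 9.47% of those of measured genes. Over all lower genes the share was 17.6%. In 29 of the genes a match began within 50 bases of the start site, where 4.67% of all promoters have one. All measured genes of G2 and mitosis were lower, so these shares describe the list and do not test the treatment. That list too was chosen with earlier results of these data known. A match describes the letters and not a bound site. The promoters shown, with the matches in capitals, are those of the largest falls with a match in the last 50 bases before the start site.
MKI67 (chr10:128126425-128126510, minus strand): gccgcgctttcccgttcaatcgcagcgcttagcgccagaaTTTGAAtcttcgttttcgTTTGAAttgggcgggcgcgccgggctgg
NCAPG (chr4:17810904-17810978, plus strand): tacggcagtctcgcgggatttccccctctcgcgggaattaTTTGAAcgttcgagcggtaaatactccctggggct
CDCA8 (chr1:37692453-37692515, plus strand): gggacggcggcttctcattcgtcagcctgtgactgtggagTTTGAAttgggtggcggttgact
ESPL1 (chr12:53268228-53268298, plus strand): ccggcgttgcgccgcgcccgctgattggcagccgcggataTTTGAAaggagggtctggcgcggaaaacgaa
KIF4A (chrX:70290030-70290103, plus strand): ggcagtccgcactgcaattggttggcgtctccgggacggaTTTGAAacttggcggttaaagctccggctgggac
MKI67 holds the letters in 2 copies, which begin at bases -47 and -29 from its start site. NCAPG, a condensin subunit, was 44.1-fold lower (35.2 to 55.9), and ESPL1, the protease separase that opens cohesin, had 0.582 FPKM in OICR-9429 and 22.7 FPKM in DMSO. CDCA8, of the chromosomal passenger complex, was 26.7-fold lower (22.6 to 31.8). The motor protein KIF4A was 28.0-fold lower (23.7 to 33.3). Of the 5 genes shown, CDCA8 had the smallest fall as a ratio.

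Few members of several housekeeping groups were higher, where 14.0% of all genes were higher and 12.1% lower. Of 79 cytosolic ribosomal protein genes 1 was higher and 8 lower (median -0.23), the latter near the share of all genes. Of 39 proteasome genes 0 were higher and 3 lower (median -0.36). The H3K4 methyltransferase complexes had 1 gene higher of 25, KMT2C, and 0 lower (median 0.13). Splicing factors leaned lower, with 17 of 71 lower and 1 higher (median -0.62). SNRPB, a core protein of the spliceosome, had 58.4 FPKM in OICR-9429 and 265 FPKM in DMSO, 4.53-fold lower (4.33 to 4.75), and HNRNPA1, an RNA-binding protein of the nucleus, had 204 FPKM in OICR-9429 and 457 FPKM in DMSO. Of the 13 mitochondrially encoded genes 3 were lower: MT-CO3 with 2047 FPKM in OICR-9429 and 4637 FPKM in DMSO, and the overlapping MT-ATP6 and MT-ATP8, whose reads cannot be told apart. MT-CO1 had 8034 FPKM in OICR-9429 and 7509 FPKM in DMSO, so the mitochondrial transcripts did not move as one.

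**Figure D4:**
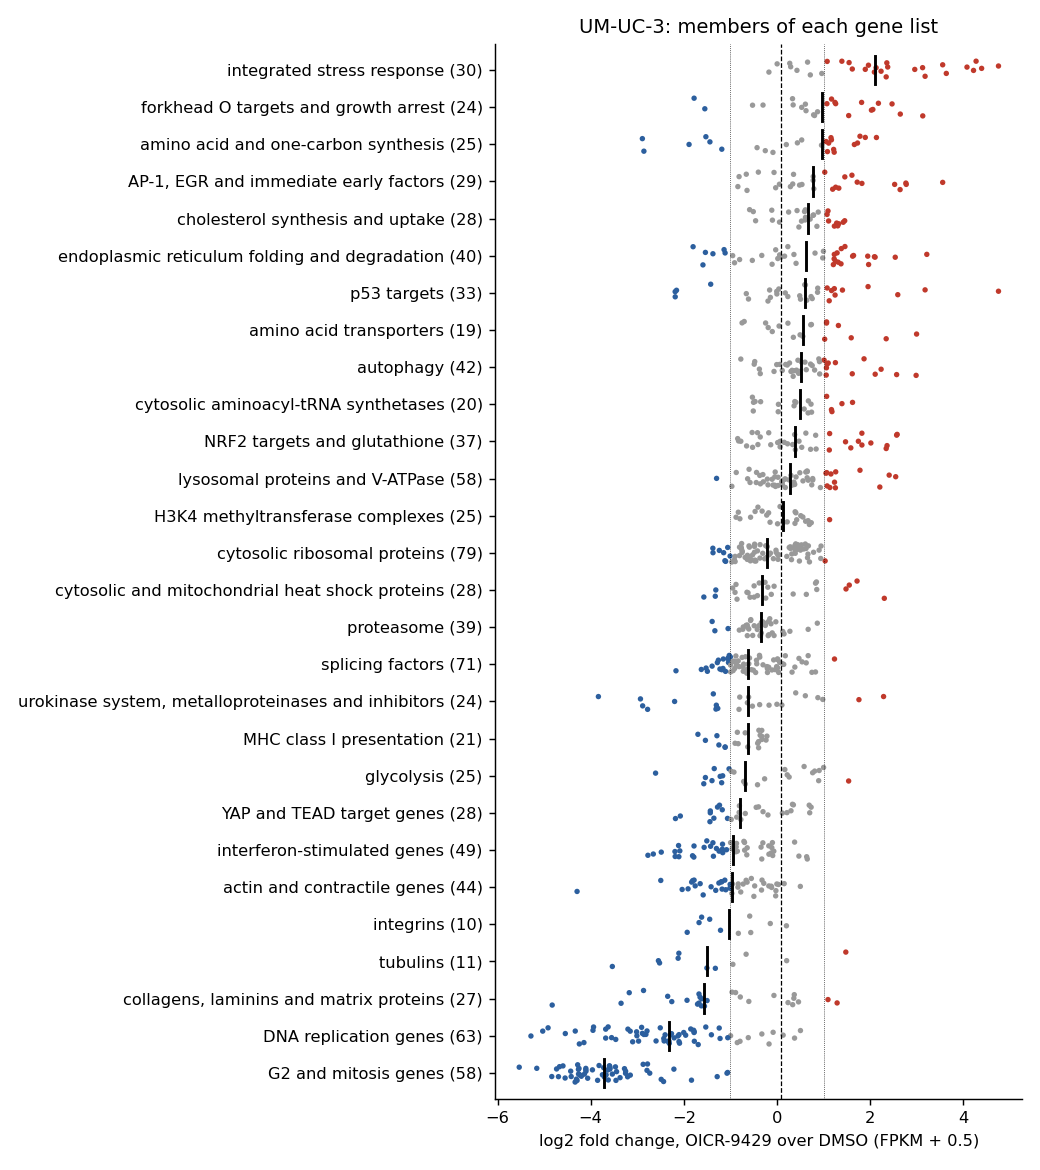
Log2 fold change, OICR-9429 over DMSO in FPKM + 0.5, of the measured members of 28 gene lists in UM-UC-3; each point is a gene, red for higher and blue for lower by at least 2-fold, black bars are list medians, and the dashed line is the median of all genes (0.09). The medians run from 2.11 for the integrated stress response to -3.71 for G2 and mitosis.

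The T24 values show where UM-UC-3 stood apart in size, although no difference between UM-UC-3 and T24 was tested. In T24, 6.93% of 12638 measured genes were higher and 13.5% lower, and the median of all genes was -0.15. The division lists were alike in size, with medians of -3.71 in UM-UC-3 and -3.56 in T24 for G2 and mitosis. The stress response list had a median of 2.11 in UM-UC-3 and 1.03 in T24, with 22 and 15 genes higher. Amino acid synthesis had 12 genes higher in UM-UC-3 and 0 in T24, and ASNS, which rose in UM-UC-3, had 65.7 FPKM in OICR-9429 and 72.1 FPKM in DMSO in T24. HSPA5, at 3.91-fold in UM-UC-3, had a log2 fold change of 0.02 in T24, and the cholesterol list had 9 genes higher in UM-UC-3 and 0 in T24. In the other direction, the NRF2 list had 12 genes higher in UM-UC-3 and 15 in T24, with medians of 0.39 and 0.66, and the lysosome list 12 and 20. The interferon-stimulated genes had 22 of 49 measured members lower in UM-UC-3 and 3 of 30 in T24, where fewer reached 1 FPKM. Their DMSO levels differed between the lines, since IFIT3 had 238 FPKM in UM-UC-3 and 0.696 FPKM in T24, and IFIT1 had 197 FPKM in UM-UC-3 and 1.02 FPKM in T24, so both were near the 1 FPKM minimum in T24. LDHA and PKM had log2 fold changes of -2.61 and -1.54 in UM-UC-3 and 0.18 and 0.03 in T24. PLAU had -3.84 in UM-UC-3 and -0.77 in T24. TIMP1, at 2.29 in UM-UC-3, had -0.01 in T24.

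**Figure D5:**
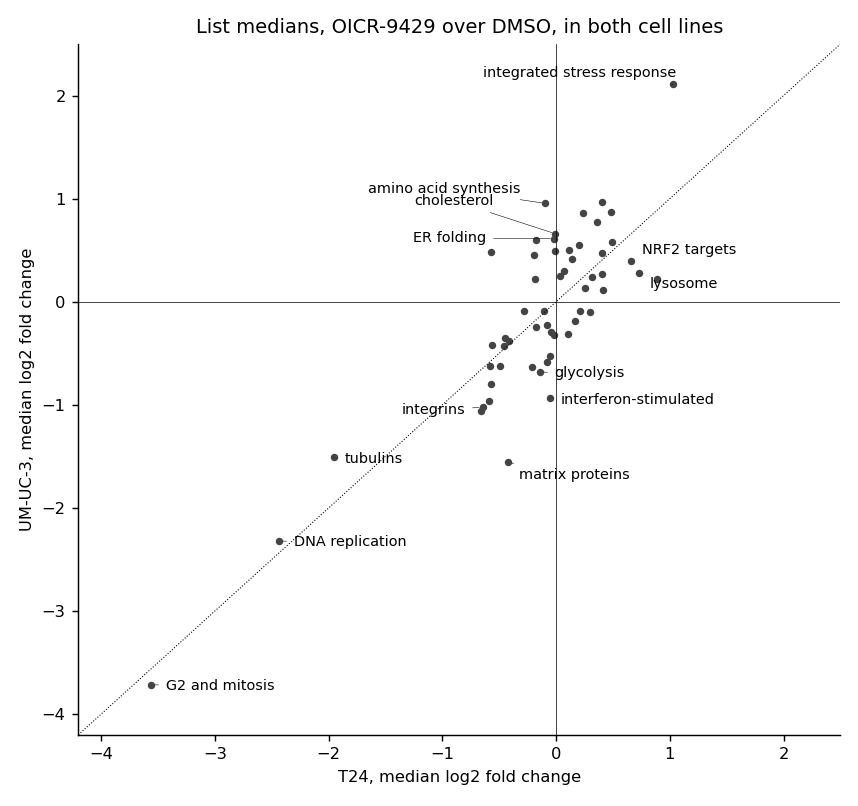
Median log2 fold change, OICR-9429 over DMSO in FPKM + 0.5, of 56 gene lists of at least 8 measured genes in UM-UC-3 (vertical axis) and T24 (horizontal axis), 1 library per condition and line; the dotted line marks equal medians. G2 and mitosis (-3.71 and -3.56) lies near that line, while the stress response (2.11 and 1.03), amino acid synthesis (0.95 and -0.10), interferon-stimulated genes (-0.94 and -0.05) and matrix proteins (-1.56 and -0.42, with the 1 FPKM minimum) lie away from it.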

How the data were processed

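RNA from UM-UC-3 and T24 cells was sequenced as 4 libraries, 1 per line and condition, with 150-base paired reads per the methods. The authors deposited FPKM values, made from reads per gene. Per the submitters' notes the build was hg19 and the tools were HTSeq 0.6.1, HISAT2 2.1.0 and bcl2fastq 2.19.1. They do not say whether counting used strand, so a gene and an antisense partner cannot be told apart. From GENCODE 29 exon lengths, merged per gene, and a single total for each library, 29029 of 31319 genes (92.7%) were worked back to whole reads within 1e-06. They gave exact 95% intervals, which cover counting error only. Genes with near-identical copies (tubulins, histones, ribosomal protein genes, ACTB, EEF1A1 and the ferritins FTL and FTH1) are uncertain.

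Genes reaching 1 FPKM in either library were called where FPKM + 0.5 changed by a fold of 2 or more. This size rule replaces a test, as each group has 1 library. Members and 56 gene lists were chosen with earlier results of these data known, and 4 lists were added later. Named genes are the 15 largest changes per direction among protein-coding genes of at least 5 FPKM, the 2 most abundant and 4 most changed members of each list, the 5 most abundant genes per library and WDR5. Others were chosen after their values were seen. Promoters came from RefSeq (GRCh38.p14), matched by symbol. Python 3.11.15, pandas 2.3.3, NumPy 2.4.6, SciPy 1.17.1 and matplotlib 3.10.9 were used. Alternatives were other pseudocounts (0.1 and 1), scalings, FPKM minimums and fold thresholds. A few genes are not reported here.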

Additional observations from a re-analysis of the deposited data

Results flagged for a closer look

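A few genes passed the 2-fold rule in opposite directions in the 2 lines, as 49 genes did in all, and the difference between the lines was not tested for any of them. EGR1, an immediate early transcription factor, changed by 2.64 on the log2 scale in UM-UC-3 and by -1.22 in T24, with 20.4 FPKM in OICR-9429 and 2.85 FPKM in DMSO in UM-UC-3, and 30.3 FPKM in OICR-9429 and 71.3 FPKM in DMSO in T24. H1F0, the linker histone H1.0 of resting cells, had 1.72 in UM-UC-3 and -1.43 in T24. GFPT2, an enzyme of hexosamine synthesis, had -1.39 in UM-UC-3 and 1.26 in T24. ADGRG1, an adhesion G protein-coupled receptor, had -1.29 in UM-UC-3 and 2.85 in T24. PCDHGC3, a protocadherin whose reads can be shared with other genes of its cluster, had -1.12 in UM-UC-3 and 2.11 in T24. GFPT2, ADGRG1 and PCDHGC3 were chosen after their values were seen. No gene could be checked for a sample far from the others, since no group has more than 1 library.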

How the results depend on the processing

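The counts of called genes depended on the thresholds. With an FPKM minimum of 5, 1089 genes were higher and 1011 lower, with a fold of at least 1.5, 3613 and 2920, and with a fold of at least 4, 316 and 421. Scaling by trimmed means of M-values (factor 1.07) shifted the median of all genes to -0.01 from 0.09, and the share of higher genes among the calls was 46.0% there and 53.6% as deposited. Over the alternatives, 55 of 60 list medians kept their sign. The 5 that did not were death receptors, markers of other cells, metallothioneins, histones and translation factors, with medians of at most 0.46 in size. Without an FPKM minimum, which adds genes under 1 FPKM in both libraries, medians were nearer 0: -0.17 in place of -1.56 for matrix proteins, -0.15 in place of -1.02 for integrins, -0.53 in place of -1.51 for tubulins, -0.10 in place of -1.63 for urothelial and keratin markers, -0.24 in place of -0.62 for the urokinase list, -0.19 in place of -0.59 for axon guidance, -0.19 in place of -0.53 for growth factor receptors and ligands, 0.35 in place of 0.55 for amino acid transporters and 0.38 in place of 0.61 for endoplasmic reticulum folding. At a minimum of 0.5 FPKM the matrix median was -0.97 and the urothelial one -0.55. None of 320 named genes had its call reversed (0), but no pseudocount or scaling used here could turn a 2-fold change around. Under the trimmed mean scaling 258 of the 320 log2 fold changes fell outside their counting interval or had no interval. Under the trimmed mean scaling the lower count was 9 in place of 5 for chemokines, 9 in place of 5 for ribosome biogenesis, 13 in place of 7 for mitochondrial ribosomal proteins and 2 in place of 1 for the lysosome. No paired analysis was possible because each condition has 1 library, and for the same reason no replicate could be left out. With 1 library per side, the spread between cultures is not known. Counting error is small beside a 2-fold change for genes of many reads, but of the higher and lower genes 739 and 569 had under 5 FPKM in their higher library, where it matters most.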

Other observations

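The Golgi apparatus and the coats that carry cargo to and from it gave a pattern that the lists above do not hold. This list and those of caveola, chaperonin and small nucleolar RNA host genes were put together after the values were seen, so their counts are descriptions. Of 64 measured Golgi and coat vesicle genes 30 were higher in UM-UC-3 and 0 lower (median 0.86), and their FPKM summed to 3333 in OICR-9429 and 1543 in DMSO. ARF4, a small GTPase of Golgi traffic, had 542 FPKM in OICR-9429 and 83.6 FPKM in DMSO (6.49-fold, 6.32 to 6.67). COG6, a subunit of the tethering complex of the Golgi, had 32.3 FPKM in OICR-9429 and 4.29 FPKM in DMSO (7.53-fold, 7.04 to 8.05). The golgin GOLGA3 had 35.4 FPKM in OICR-9429 and 4.78 FPKM in DMSO. CREB3, a membrane-bound transcription factor, had 164 FPKM in OICR-9429 and 37.6 FPKM in DMSO, and the coat subunits SEC24A and COPA had log2 fold changes of 2.29 and 1.62. In T24, 6 of 64 genes of that list were higher (median 0.24). Over all genes 14.0% were higher in UM-UC-3 and 6.93% in T24. Since the list was put together after the values were seen, its counts cannot measure a difference between the lines, which was not tested.

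Caveola genes were lower, 4 of 8 measured, with CAV1 at 18.0 FPKM in OICR-9429 and 127 FPKM in DMSO and its coat protein PTRF at 46.7 FPKM in OICR-9429 and 206 FPKM in DMSO. Of the 8 subunits of the cytosolic chaperonin, which folds actin and tubulin, 4 were lower and 0 higher, with CCT7 at 31.7 FPKM in OICR-9429 and 149 FPKM in DMSO, while CCT6A and TCP1 had log2 fold changes of -0.17 and -0.03. Of 21 host genes of small nucleolar RNAs 7 were higher and 2 lower, against 14.0% and 12.1% of all genes. SNHG7 had 109 FPKM in OICR-9429 and 23.6 FPKM in DMSO and GAS5 had 136 FPKM in OICR-9429 and 50.4 FPKM in DMSO, whereas SNHG4 and DANCR had log2 fold changes of -1.29 and -1.19.

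Protein-coding and other genes differed in their shares. Of 10511 protein-coding genes 11.9% were higher and 11.6% lower. Of 521 antisense genes 20.3% were higher and 8.45% lower, with a median of 0.34, and the median of 121 sense intronic genes was 0.48. Whether counting used strand is not given in the sources used here, so reads of the host genes may stand in these values.

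Among single genes of other lists, ULBP1, a ligand of the natural killer cell receptor NKG2D, had 9.95 FPKM in OICR-9429 and 0.982 FPKM in DMSO (10.1-fold, 8.13 to 12.8), and the death receptor TNFRSF10B had 65.9 FPKM in OICR-9429 and 16.6 FPKM in DMSO (3.96-fold, 3.79 to 4.14). HEY1, a Notch target, had 8.50 FPKM in OICR-9429 and 0.658 FPKM in DMSO, while of 38 measured Notch and Wnt genes 4 were higher and 6 lower. SMAD3, a transducer of TGF-beta signals, had 15.4 FPKM in OICR-9429 and 63.1 FPKM in DMSO, 4.08-fold lower (3.95 to 4.23). Of 36 measured genes of the TGF-beta list 6 were higher and 3 lower.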
